A study of Mus musculus with 2 samples.

Results

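Molecular chaperones were described here as the protein-coding genes whose symbols name a heat shock protein (Hspa, Hspb, Hspd, Hspe, Hsph, Hsp90), a J protein (Dnaja, Dnajb, Dnajc), a subunit of the TRiC chaperonin (Cct, Tcp1) or a protein disulfide isomerase (Pdia). By that rule on names there were 85 genes, among 69691 rows of the gene table and 21474 protein-coding rows. The rule reads gene names and types only. The cells were MEL, an immortalized mouse erythroleukemia line that resembles early red cell precursors and can be driven to make hemoglobin. All had been kept in 2% dimethyl sulfoxide (DMSO), a common inducer of that step, for 5 days, and total RNA was sequenced from 2 libraries, called replicate 1 and replicate 2. The labels call them biological replicates but give both the same biosample record, so the spread between them may be technical. No untreated library was analysed here, so values are compared between genes and between the libraries, and none is a response to DMSO. MEL is a transformed line, and the share of cells that had matured by day 5 is not given in the sources used here.

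Chaperones bind unfolded proteins and help them reach their shape. HSP70 proteins work in cycles of ATP use that J proteins start and nucleotide exchange factors end. HSP90 then takes over clients such as kinases and hormone receptors, while TRiC closes around actin and tubulin. The endoplasmic reticulum (ER) and the mitochondria each have their own HSP70, HSP90 or chaperonin, and the ER adds disulfide isomerases that set cysteine bonds. Red cell precursors depend on this machinery: HSP70 is known for its part in keeping the erythroid regulator GATA1, and globin is made in very large amounts.

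Of the 85 chaperone genes, 52 (61.2%) had 1 TPM (a level scaled by transcript length and library total) or more in both libraries, against 37.3% of all protein-coding genes. Another 4 genes reached that level in replicate 1 only, namely Dnajc30, Dnajc25, Dnajc17 and Pdia2, and 0 in replicate 2 only. At the other end, 9 genes had a count of 0 in both libraries, which allows up to 3 counts or 0.0461 CPM (counts scaled to a common library total) in replicate 1 and 0.0330 in replicate 2. These were the small heat shock genes Hspb2, Hspb3, Hspb7 and Hspb8, the J protein genes Dnajb3, Dnajc5b, Dnajc5g and Dnajc15, and the isomerase gene Pdia5. Together the 85 genes summed to 1847 TPM in replicate 1 and 1140 TPM in replicate 2 (1493 ± 500, SD, n = 2). That was 1.37% of the protein-coding TPM in replicate 1 and 0.881% in replicate 2. The level fell mostly to a few families: HSP70 and HSP110 held 37.7% and 28.2% of the summed chaperone TPM in replicates 1 and 2, TRiC 24.2% and 30.7%, and HSP90 14.8% and 14.2%. By compartment, genes of the cytosol and nucleus held 73.9% and 74.8%, the ER 13.7% and 12.1%, and the mitochondria 11.2% and 11.3%.

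**Figure D1:**
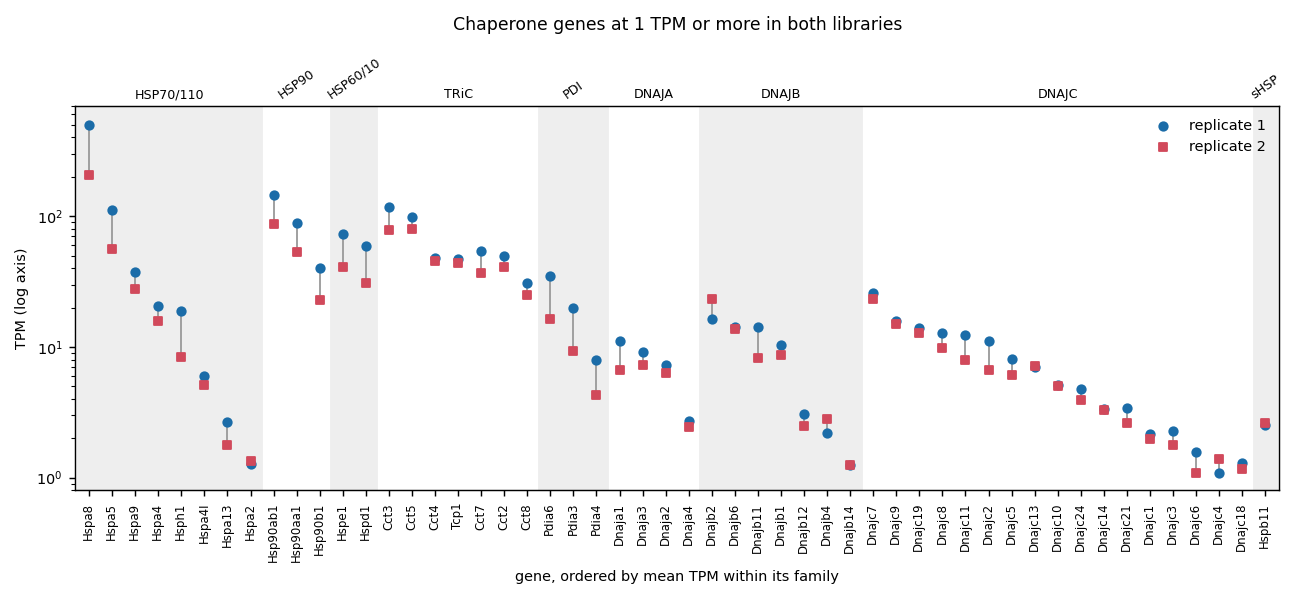
TPM of the 52 chaperone genes at 1 TPM or more in both libraries, on a log axis, grouped by family and ordered by mean TPM within each family (sHSP, small heat shock protein). Circles are replicate 1, squares replicate 2, and a line joins the 2 libraries; Hspa8 stands highest in both, at 497.4 and 205.6 TPM, and Hspb11 is the one small heat shock gene shown.

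Replicate 1 held 65109488 estimated counts and replicate 2 held 90856320, and over genes the libraries differed far beyond counting error (chi-square per degree of freedom 258). The erythroid markers, 9 of 9 at 1 TPM or more, were all higher in replicate 2 on scaled counts (on the TPM scale Klf1 and Epor were not), with a median log2 ratio of 1.15 and 5 genes 2-fold or more apart. Adult globin genes took 1.10% of counts in replicate 1 and 2.66% in replicate 2. Of 4 myeloid markers only Prtn3 reached 1 TPM in both libraries, and Elane had 2 counts and 0. The 2 stromal markers stood at or below 0.08 TPM. The 3 megakaryocyte markers were all at 1 TPM or more, with Itga2b 2-fold higher in replicate 2 and Pf4 and Gp5 lower, at log2 ratios of -0.20 and -0.57. These differences lie between the same 2 libraries as the ratios given below, and their part in those ratios was not tested. In bulk RNA, fewer cells of a type and less RNA per cell cannot be told apart.

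Ratios between libraries are log2 of replicate 2 over replicate 1 on estimated counts with TMM scaling, each with its exact 95% interval for counting error. With 1 library on each side they carry no test. Among protein-coding genes at 1 TPM or more the median log2 ratio was 0.04 on this scale, but -0.26 on the TPM scale, so that TPM in replicate 2 ran lower for most genes. Of 71 chaperone genes with 10 or more counts in a library, 4 (5.63%) were 2-fold or more apart, against 6.04% of all protein-coding genes tested. All 4 were lower in replicate 2, against 3.25% of protein-coding genes, and 0 were higher, against 2.79%. Hspa8 was the one gene of the 4 with over 100 counts. The others were Dnajb5 (82 and 44 counts), Hspa1l (21 and 12) and Hspb1 (14 and 4), which are named because so few genes passed. Of the 52 chaperone genes at 1 TPM or more, 29 (55.8%) were lower in replicate 2 by any amount, against 43.8% of protein-coding genes at that level. Their median log2 ratio was -0.03. The sides given below hold for scaled counts. On the TPM scale 46 of the 52 (88.5%) were lower, with a median of -0.32, against 80.0% of protein-coding genes at that level. There, with 0.1 added to each TPM, 5 of the 71 chaperone genes (7.04%) were 2-fold apart, against 2.97% of protein-coding genes. They were Hspa8, Hsph1, Pdia6, Pdia3 and Hspa5, the last only just, at -1.002. The added 0.1 makes the ratios of low genes smaller, in the background as well. The share 2-fold apart was thus near the background on scaled counts and above it on the TPM scale, where it rests on 5 genes.

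**Figure D2:**
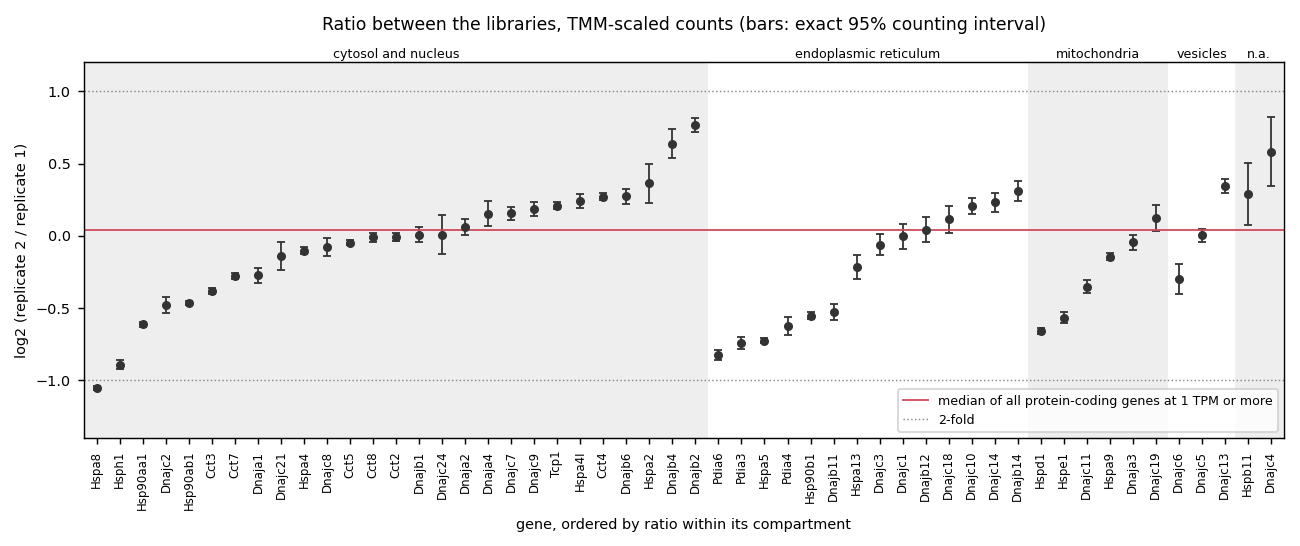
Log2 ratio of replicate 2 to replicate 1 on TMM-scaled counts for the 52 chaperone genes at 1 TPM or more in both libraries, ordered within compartments (n.a., not assigned), with bars for the exact 95% counting interval. The solid line is the median of all protein-coding genes at 1 TPM or more (0.04) and the dotted lines mark 2-fold; Hspa8 is the one gene beyond them, and Dnajb2 lies highest at 0.76.

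HSP70 and HSP110 summed to 695.9 TPM in replicate 1, above TRiC at 446.4, but to 321.7 in replicate 2, below TRiC at 350.1. With transcripts annotated as coding only, TRiC was above them in both libraries, at 364.8 and 289.6 against 352.9 and 168.3 TPM. The leading gene was Hspa8, the constitutive HSP70 of the cytosol (chr9:40800984-40810087, + strand, GRCm38). It stood at 497.4 TPM in replicate 1 and 205.6 TPM in replicate 2. It was the 38th protein-coding gene by TPM in replicate 1 and the 107th in replicate 2, and the one chaperone gene among the top 100 of a library. Its counts were 127838 and 84112, a log2 ratio of -1.05 (interval -1.07 to -1.04). The libraries were thus apart by 2.08-fold in the gene that supplied 71.5% of the HSP70 and HSP110 TPM in replicate 1 and 63.9% in replicate 2.

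Most of the Hspa8 TPM did not belong to the transcript that encodes the full protein. Hspa8-203, a transcript of 606 nt annotated as processed and without a coding sequence, held 204.98 TPM in replicate 1 and 82.06 in replicate 2, or 41.2% and 39.9% of the gene. Hspa8-202, the coding transcript of 2019 nt, held 199.96 and 77.11 TPM, or 40.2% and 37.5%. A further non-coding transcript, Hspa8-209 of 727 nt, held 80.49 and 42.39 TPM. TPM divides by length, so short transcripts weigh more in it than in counts: of the estimated counts, coding transcripts held 70.5% in replicate 1 and 68.4% in replicate 2.

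With coding transcripts alone, Hspa8 stood at 200.3 and 77.3 TPM. Hsp90ab1, the next gene in level, stood at 141.9 and 84.9 TPM on the same scale. The order of the 2 leading genes therefore depended on the transcripts counted: Hspa8 over Hsp90ab1 was 3.42 in replicate 1 and 2.38 in replicate 2 over all transcripts, but 1.41 and 0.910 over coding transcripts. The lower value of Hspa8 in replicate 2 remained on coding counts, with a log2 ratio of -1.10.

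**Figure D3:**
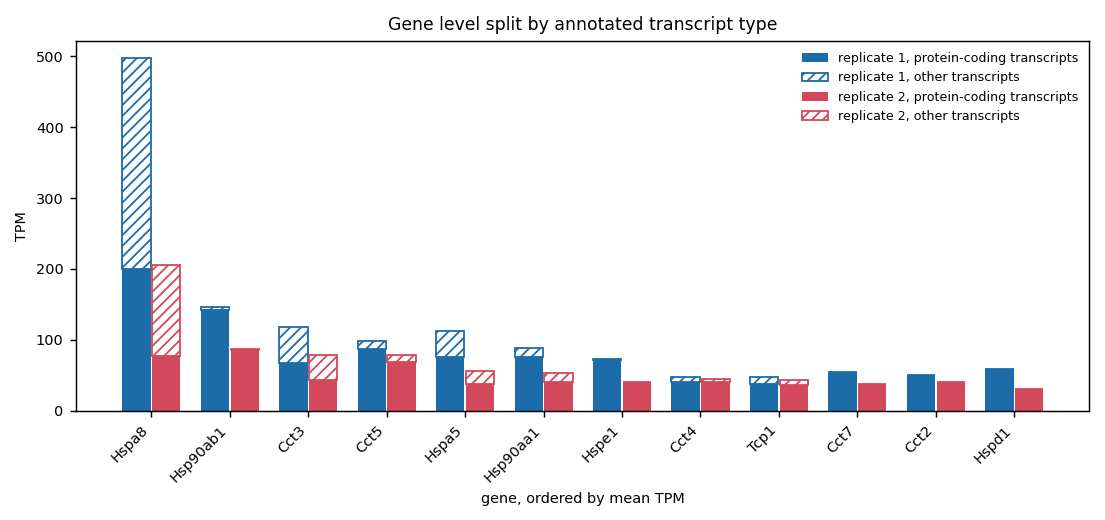
TPM of the 12 chaperone genes with the highest mean TPM, as stacked bars for replicate 1 (left of each pair) and replicate 2 (right), split into transcripts annotated as protein-coding (filled) and all others (hatched). The hatched part is tallest in Hspa8, is large in Cct3 and Hspa5, and is absent in Cct7 and Cct2, which have 1 transcript each.

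Among the other HSP70 genes, Hspa5 encodes BiP, the HSP70 of the ER lumen (chr2:34771970-34777547, + strand). Hspa5 stood at 111.8 TPM in replicate 1 and 55.8 in replicate 2, with a log2 ratio of -0.73 (interval -0.74 to -0.71). Its coding transcripts held 68.1% and 67.8% of that TPM, and Hspa5-204, a transcript of 477 nt annotated for nonsense-mediated decay, held 27.7% and 29.0%. Hspa9, the mitochondrial HSP70 that pulls imported proteins into the matrix, stood at 37.7 and 28.0 TPM, with a log2 ratio of -0.14. The cytosolic to ER ratio, Hspa8 over Hspa5, was 4.45 and 3.69 over all transcripts and 2.63 and 2.04 over coding ones.

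The HSP110 proteins act as exchange factors for HSP70. Hspa4 stood at 20.5 and 15.7 TPM with a log2 ratio of -0.10, Hspa4l at 5.95 and 5.11 TPM with 0.24, and Hsph1 at 18.7 and 8.34 TPM with -0.89 (interval -0.92 to -0.86). Of these HSP110 genes, Hsph1, which encodes HSP105, was the one well below the protein-coding median in its ratio. Hspa13, a microsomal member, stood at 2.66 and 1.77 TPM, and Hspa2, best known from the testis, at 1.26 and 1.33 TPM.

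The heat-inducible pair was at the limit of detection. Hspa1a had 5 counts in each library, and Hspa1b had 0 and 2. These genes are near-identical copies, and the authors' posterior standard deviation reached 29.8% of the count for Hspa1a and 51.7% for Hspa1b, so the split between them is uncertain. Hspa1l, next to them on chromosome 17, had 21 and 12 counts. Hspa12a, a distant member, had 3 and 2 counts, and Hspa12b had 70 and 85. The HSP70 RNA of these libraries was thus almost all of the constitutive genes.

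The promoter of Hspa1a is shown because an element of the heat shock factors lies in a gene with so few counts. It is the stretch chr17:34972157-34972406 on the - strand, before the RefSeq start site (GRCm38.p6), with the 8 bases of a heat shock element pair, GAANNTTC, in capitals.
Hspa1a: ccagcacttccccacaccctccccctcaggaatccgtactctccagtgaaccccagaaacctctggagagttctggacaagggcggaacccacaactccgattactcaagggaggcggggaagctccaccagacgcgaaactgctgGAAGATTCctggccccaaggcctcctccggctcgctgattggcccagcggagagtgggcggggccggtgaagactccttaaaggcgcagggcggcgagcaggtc
The same stretch of Hspa1b differs from it at 3 of 250 bases. RefSeq windows, from 250 bases before a start site to 50 after it, were held for 70 of the 85 genes (89 windows). The pair GAANNTTC, searched on both strands, was in 20.2% of the chaperone windows (16 genes) and in 7.86% of all 32851 windows. Some of the chaperone windows overlap and hold the same bases. A match is a description of the letters and not a site of binding.

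HSP90 comprised 3 genes by symbol, all at 1 TPM or more and all lower in replicate 2, with a median log2 ratio of -0.55. Hsp90ab1, the constitutive cytosolic form, stood at 145.6 and 86.5 TPM with a log2 ratio of -0.46 (interval -0.48 to -0.45). Hsp90aa1, the stress-inducible cytosolic form, stood at 88.0 and 52.8 TPM with -0.61 (interval -0.63 to -0.60). The ratio of Hsp90ab1 to Hsp90aa1 held at 1.65 ± 0.0115 (SD, n = 2) over all transcripts, while over coding transcripts it was 1.87 in replicate 1 and 2.10 in replicate 2. Hsp90aa1-204, a retained intron of 325 nt, held 12.9% and 21.7% of the Hsp90aa1 TPM. Hsp90b1, which encodes GRP94 of the ER, stood at 40.3 and 22.8 TPM with a log2 ratio of -0.55.

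Most partners of HSP90 were lower in replicate 2 too. Of 11 partner genes, all at 1 TPM or more, 10 were lower and 0 were 2-fold apart, with a median log2 ratio of -0.26. Of all protein-coding genes at that level 43.8% were lower on scaled counts. Some of the 10 were barely so: the intervals of Ptges3 (-0.07 to 0.007) and Unc45a (-0.08 to 0.05) include 0. The list includes Trap1, the mitochondrial HSP90, which lies outside the symbol rule and stood at 16.1 and 12.7 TPM with -0.07. Cdc37, which brings kinases to HSP90, had the highest mean, at 46.8 and 31.5 TPM with a log2 ratio of -0.30. Fkbp5, an immunophilin of steroid receptor complexes, had the lowest, at 3.34 and 1.96 TPM with -0.35. Over the HSP90 genes and these partners, the shift was below the protein-coding median of 0.04 without any gene at 2-fold on scaled counts.

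The mitochondrial chaperonin is made of HSP60 rings capped by HSP10, from the genes Hspd1 and Hspe1. Hspd1 stood at 58.8 TPM in replicate 1 and 31.0 in replicate 2, a log2 ratio of -0.66 (interval -0.68 to -0.63). Hspe1 stood at 72.8 and 40.8 TPM, a log2 ratio of -0.57 (interval -0.61 to -0.53). The pair kept its proportion, with Hspe1 over Hspd1 at 1.24 and 1.32 per length (1.28 ± 0.056, SD, n = 2).

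Hspd1 and Hspe1 lie head to head on chromosome 1, Hspd1 on the - strand with its annotated start at 55088243 and Hspe1 on the + strand with its start at 55088132, so that the annotated genes overlap at their starts, which lie 111 bases apart. Whether reads were counted by strand is not given in the sources used here. A stretch before the annotated start of Hspe1, inside the annotated Hspd1 gene, is shown. It holds a heat shock element that RefSeq windows of both genes contain. Capitals mark 3 or more alternating GAA and TTC units spaced by 2 bases, a form that contains the pair GAANNTTC. Hsph1 and Dnajb6 were the other chaperone genes with such a triplet.
Hspe1: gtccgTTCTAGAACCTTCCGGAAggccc
Hspd1: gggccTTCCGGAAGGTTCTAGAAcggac
Hsph1: gcagaTTCTGGAAAGTTCtcctc
Dnajb6: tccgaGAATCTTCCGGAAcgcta
The first 2 lines are the opposite strands of chr1:55088054-55088081. The element begins 89 bases before the RefSeq start of Hspe1 at 55088148. RefSeq has 2 starts for Hspd1, and the element begins 144 bases before the one at 55087932 and lies inside the gene from the one at 55088243. The Hsph1 site is chr5:149636283-149636305 on the - strand, after its start site, and the Dnajb6 site is chr5:29735847-29735869 on the + strand, before a RefSeq start that lies inside the gene as GENCODE annotates it. The triplet, searched on both strands, was in 6.74% of chaperone windows (6 windows of 4 genes) and in 0.603% of all windows. These windows repeat the same bases. Hspd1 and Hspe1 share their stretch, and the sites of Dnajb6 and Hsph1 are each seen from more than 1 start. Their log2 ratios were -0.57 for Hspe1, -0.66 for Hspd1, -0.89 for Hsph1 and 0.27 for Dnajb6, so genes with these letters lay on both sides of the median.

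Heat shock factors, which bind such elements, were a list of 5 genes with their binding protein, and 2 were at 1 TPM or more. Hsf1, the main stress-activated factor, stood at 6.49 TPM in replicate 1 and 3.30 in replicate 2, with a log2 ratio of -0.70. Hsbp1, which binds Hsf1, had the highest mean at 12.5 and 10.1 TPM, with a log2 ratio of -0.03. Hsf5 had the lowest, at 7 and 8 counts. The RNA level of a factor is no measure of its activity.

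The other mitochondrial members are J proteins, grouped here by compartment, and not all of them need act with Hspa9. Dnajc19, part of the import motor, stood at 14.0 and 12.7 TPM, Dnajc11 at 12.4 and 7.94 TPM, and Dnaja3 of the matrix at 9.10 and 7.26 TPM. Their log2 ratios were 0.12, -0.35 and -0.04. The mitochondrial J proteins, Dnajc11 among them, summed to about the level of Hspa9, with Hspa9 over the sum at 1.02 and 0.969. In the ER, Hspa5 stood at 3.30 and 2.12 times the summed J proteins of the ER. In the cytosol and nucleus Hspa8 stood at 7.67 and 3.19 times the summed DNAJA and DNAJB genes. That sum leaves out DNAJC genes of the compartment, such as Dnajc7 at 26.1 and 23.3 TPM. The ER and mitochondrial sums include theirs, so the ratios of the compartments cannot be set side by side. With coding transcripts only, the cytosolic ratio was 3.70 and 1.38. Of 5 partners in mitochondrial import and proteolysis, 4 were lower in replicate 2, with a median log2 ratio of -0.14; Lonp1, a matrix protease, led at 22.6 and 16.4 TPM and Clpx, an unfoldase, was last at 4.29 and 4.53 TPM.

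TRiC is a pair of stacked rings built of different subunits in equal numbers. The rule found 9 TRiC genes, of which 7 encode ring subunits at 1 TPM or more, while Cct6b and Cct8l1, known from the testis, stood at 0.12 and 0.13 TPM and at 0.02 and 0.02 TPM. The remaining ring subunit, Cct6a, fell outside the rule because its gene is not annotated as protein-coding in the release used, and stood at 31.5 and 23.0 TPM. The 7 subunits summed with the low genes to 446.4 TPM in replicate 1 and 350.1 in replicate 2.

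Cct3 was highest, at 118.1 and 78.8 TPM, and Cct5 next, at 98.1 and 79.1 TPM. Cct7 followed at 54.2 and 36.9 TPM. Cct2 stood at 49.6 and 40.7 TPM, Cct4 at 48.2 and 45.3 TPM, and Tcp1, which encodes the alpha subunit, at 47.4 and 43.9 TPM. Cct8 was lowest of the 7 at 30.6 and 25.1 TPM, though Cct6a was below it in replicate 2. The means of Cct2, Cct4, Cct7 and Tcp1 lay within their spread between libraries and have no order, and Cct5 was above Cct3 in replicate 2.

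The RNAs of these subunits were thus not equal: the highest over the lowest of the 7 was 3.87 in replicate 1 and 3.15 in replicate 2 (3.51 ± 0.507, SD, n = 2). With Cct6a among them it was 3.87 and 3.43. In replicate 1, where Cct3 was highest, part of the gap lay in Cct3-203, a retained intron of 472 nt. Cct3-203 held 40.7% and 44.2% of the Cct3 TPM, but in replicate 2 the highest subunit was Cct5. With coding transcripts only, Cct3 stood at 67.7 and 42.7 TPM, below Cct5 at 86.3 and 68.3 TPM, and the highest over the lowest was 2.97 and 2.84. Between libraries the subunits ran from -0.38 for Cct3 to 0.27 for Cct4 in log2 ratio, with a median of -0.01. In contrast to HSP90 and HSP60, the subunits thus lay on both sides of the protein-coding median, though no test of that difference was possible. Of 9 genes for prefoldin and other TRiC partners, 5 were lower and 4 higher in replicate 2 (median log2 ratio -0.01), led by the prefoldin subunit Pfdn5 at 45.9 and 41.3 TPM, with Pdcl lowest at 3.80 and 3.07 TPM.

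Protein disulfide isomerase genes with a Pdia symbol numbered 5, and the 3 at 1 TPM or more were all lower in replicate 2, with a median log2 ratio of -0.74. Pdia6 stood at 34.8 TPM in replicate 1 and 16.4 in replicate 2, with a log2 ratio of -0.82 (interval -0.86 to -0.79). Pdia3, which works on glycoproteins with calnexin and calreticulin, stood at 19.8 and 9.30 TPM with -0.74. Pdia4 stood at 7.99 and 4.28 TPM with -0.62. Pdia2, known from the pancreas, stood at 1.16 and 0.95 TPM, with a posterior standard deviation of 9.19% of the count, and Pdia5 was at 0 counts. None was 2-fold apart on scaled counts, while on the TPM scale Pdia6 and Pdia3 both were, at -1.08.

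The other ER lectins and oxidoreductases, a list of 17 genes with 15 at 1 TPM or more, had 12 lower and 3 higher in replicate 2, a median log2 ratio of -0.41, and 1 gene 2-fold lower. That gene was Calr, which encodes calreticulin, at 61.8 and 24.6 TPM and a log2 ratio of -1.08 (interval -1.11 to -1.05). Canx, which encodes calnexin, had the highest mean at 82.2 and 49.2 TPM with a log2 ratio of -0.31. P4hb, the founding disulfide isomerase, lies outside the symbol rule and stood at 66.9 and 38.4 TPM with -0.51, and Clgn, the testis form of calnexin, had 6 and 9 counts.

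Sites of the ER stress response element are shown because members of both ER lists share them. The element is the letters CCAAT, 9 bases of any kind, then CCACG, searched on both strands. It was in 4.49% of chaperone windows, in the 4 genes named here, and in 0.119% of all 32851 windows (39 windows). Of 11 ER lectin, oxidoreductase and exchange factor genes with a window, 3 held it. Capitals mark the element, and Hsp90b1 has it at 2 places.
Hspa5: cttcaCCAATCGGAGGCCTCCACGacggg
Hsp90b1 distal: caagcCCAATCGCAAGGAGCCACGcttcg
Hsp90b1 proximal: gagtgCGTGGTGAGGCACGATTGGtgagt
Pdia6: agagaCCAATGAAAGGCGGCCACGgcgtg
Dnajc3: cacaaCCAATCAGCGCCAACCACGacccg
Calr: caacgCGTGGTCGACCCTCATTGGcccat
Canx: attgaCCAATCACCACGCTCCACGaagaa
Creld2: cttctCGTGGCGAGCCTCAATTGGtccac
The sites begin 65 bases before the RefSeq start site in Hspa5 (chr2:34772020-34772048, + strand), 212 and 107 before it in Hsp90b1 (chr10:86705633-86705661 and chr10:86705528-86705556, - strand), 98 in Pdia6 (chr12:17266486-17266514, + strand) and 105 in Dnajc3 (chr14:118937822-118937850, + strand). They begin 162 bases before the start site in Calr (chr8:84847070-84847098, - strand), 145 in Canx (chr11:50325795-50325823, - strand) and 126 in Creld2 (chr15:88819515-88819543, + strand). Of the genes printed, Hspa5, Hsp90b1 and Pdia6 had log2 ratios of -0.73, -0.55 and -0.82, and Dnajc3 had -0.06. Creld2, an ER isomerase-like gene, had -0.74. Calr and Canx had -1.08 and -0.31. Within this set the ratios thus ran from -1.08 to -0.06. In Hspa5 the GENCODE gene begins further upstream than the RefSeq start used, and the site lies inside it.

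The longer stretch before Hsp90b1 shows how its elements lie in opposite orientation within 1 promoter (chr10:86705510-86705694, - strand).
Hsp90b1: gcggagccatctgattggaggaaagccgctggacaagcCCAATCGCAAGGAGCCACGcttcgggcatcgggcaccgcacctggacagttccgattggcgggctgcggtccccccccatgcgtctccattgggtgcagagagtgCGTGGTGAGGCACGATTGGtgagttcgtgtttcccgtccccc

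Not all ER genes were lower in replicate 2. Of the 14 ER members at 1 TPM or more, 9 were lower and 5 higher, with a median log2 ratio of -0.14, while on the TPM scale all 14 were lower. The ratios ran from -0.82 for Pdia6 to 0.31 for Dnajb14, a J protein of the ER membrane. Dnajc1 was at -0.0038, Dnajb12 at 0.04 and Dnajc14 at 0.23. Dnajc10, a lumenal disulfide reductase, stood at 5.07 and 5.05 TPM, with a log2 ratio of 0.21. Dnajb9, an ER J protein gene known as a target of the unfolded protein response, stood at 0.40 and 0.31 TPM, and Dnajc3 at 2.27 and 1.79 TPM. Of 9 genes of the unfolded protein response, which signals misfolding in the ER, 4 were lower and 5 higher (median log2 ratio 0.21). On the TPM scale only Atf6, Ddit3 and Herpud1 of the 9 were higher. The regulator Atf4 was the highest of the 9 in level, at 45.5 and 43.9 TPM with 0.22. The sensor kinase Eif2ak3 was lowest, at 1.65 and 1.36 TPM with -0.03.

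J proteins numbered 45 by symbol, and 28 of them were at 1 TPM or more. The DNAJA genes, 4 of 4 at 1 TPM or more, summed to 30.2 TPM in replicate 1 and 22.7 in replicate 2, the DNAJB genes to 62.5 and 61.4 TPM, and the DNAJC genes to 140 and 116 TPM. In the cytosol, Dnaja1 stood at 11.1 and 6.68 TPM with a log2 ratio of -0.27, Dnaja2 at 7.32 and 6.30 TPM with 0.06, and Dnaja4 at 2.72 and 2.45 TPM with 0.15. The DNAJA genes showed no common side on scaled counts, while on the TPM scale all 4 were lower.

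Of the 7 expressed DNAJB genes, 6 were higher in replicate 2 on scaled counts, with a median log2 ratio of 0.27, but on the TPM scale 5 of the 7 were lower and the median was -0.04. Dnajb2, which binds ubiquitinated clients, was highest in the family at 16.4 TPM in replicate 1 and 23.4 in replicate 2, and its log2 ratio of 0.76 (interval 0.72 to 0.81) was the highest of the 52 chaperone genes. Dnajb4, a cytosolic relative of Dnajb1, had the next highest at 0.64 (interval 0.54 to 0.74), from 2.21 and 2.81 TPM. Both were higher in replicate 2 on the TPM scale too.

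Dnajb1, the classic HSP40 of the heat shock response, stood at 10.4 and 8.62 TPM with a log2 ratio of 0.01, and Dnajb6, which suppresses aggregation, at 14.1 and 13.7 TPM with 0.27. Dnajb11, the ER partner of BiP, stood at 14.1 and 8.29 TPM with -0.53, the one DNAJB gene of the 7 that was lower. Dnajb12 and Dnajb14 of the ER membrane stood at 3.05 and 2.49 TPM and at 1.25 and 1.24 TPM.

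DNAJC is a family by domain alone, and its members do unlike things. Of 28 genes, 17 were at 1 TPM or more, 7 of them lower and 10 higher in replicate 2. The median log2 ratio was 0.01, and -0.02 when scaled by total counts. On the TPM scale 15 of the 17 were lower, with a median of -0.16. Dnajc7, which binds both HSP70 and HSP90, was highest at 26.1 and 23.3 TPM with 0.16, but coding transcripts held only 7.11 and 7.16 TPM of it, and its leading transcript is annotated as processed. On coding transcripts Dnajc9, Dnajc19 and Dnajc8 stood above it in both libraries. Dnajc9, a histone chaperone, stood at 15.9 and 14.9 TPM with 0.18, and Dnajc8, associated with splicing, at 12.7 and 9.81 TPM with -0.07. Dnajc2, which sits on the ribosome, stood at 11.2 and 6.65 TPM with -0.48, the lowest ratio of the family.

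Vesicle J proteins were present as well. Dnajc5, the cysteine string protein, stood at 8.06 and 6.10 TPM, and Dnajc13, which acts on endosomes, at 7.04 and 7.12 TPM. Dnajc6, the auxilin that uncoats clathrin vesicles, stood at 1.56 and 1.08 TPM. Dnajc24, which serves the synthesis of diphthamide, stood at 4.74 and 3.89 TPM, of which coding transcripts held 31.4% and 30.1%. Of the 4 J protein genes under other symbols, all 4 were higher in replicate 2 (median log2 ratio 0.18), from Gak, a relative of auxilin, at 8.83 and 8.01 TPM to Sec63 of the ER at 2.30 and 1.94 TPM.

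Exchange factors and the ubiquitin ligase CHIP, 12 of 12 at 1 TPM or more, had 8 lower and 4 higher in replicate 2 and a median log2 ratio of -0.02. Bag6 had the highest mean, at 21.1 and 16.7 TPM, and Bag3 the lowest, at 1.13 and 1.07 TPM. Hyou1, an exchange factor of the ER, was chosen after its values were seen as the lowest of the list in ratio. It stood at 20.5 and 8.96 TPM with a log2 ratio of -0.88, on the side of Hspa5. Sil1, also an exchange factor of the ER, was not on that side. Its values were 4.25 and 3.74 TPM, with a log2 ratio of 0.09 (interval -0.0045 to 0.18).

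**Figure D4:**
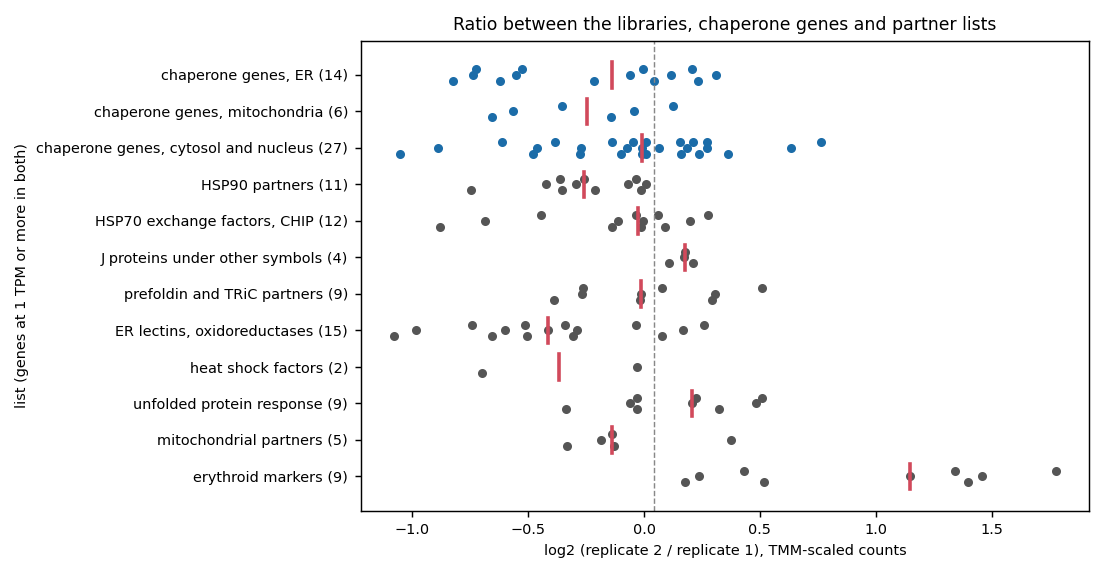
Log2 ratio of replicate 2 to replicate 1 on TMM-scaled counts for chaperone genes of 3 compartments and for lists of partner genes, at 1 TPM or more in both libraries (number of genes in brackets). Each point is a gene, the short bar is the median of its list, and the dashed line is the median of all protein-coding genes (0.04); ER lectins and oxidoreductases lie to the left at -0.41 and erythroid markers to the right at 1.15.

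Small heat shock proteins hold unfolded proteins until HSP70 can act. Of 8 genes, 4 were at 0 counts in both libraries and 1 was at 1 TPM or more. That gene, Hspb11, is known as a part of the intraflagellar transport machinery and carries the name by history, and it stood at 2.54 and 2.63 TPM. Hspb1, which encodes HSP27, had 14 and 4 counts, Hspb6 had 92 and 104, and Hspb9 had 19 and 20. Apart from Hspb11, the members of this family thus lay at or below 0.28 TPM.

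Transcript use was read in the 37 chaperone genes with a mean of 5 TPM or more, 31 of which had several transcripts. The leading transcript was the same in both libraries for 30 of the 31, the exception being Dnajc5, which was led by Dnajc5-204 in replicate 1 and Dnajc5-201 in replicate 2. In 16 of the 37 genes the leading transcript held over 90% in both libraries. The smallest leading shares were 24.1% ± 1.03 in Dnajb2, 33.2% ± 3.95 in Dnajc7, 33.9% ± 2.73 in Dnajc5, 34.5% ± 4.44 in Hspa4l and 38.9% ± 1.14 in Dnajc13 (SD, n = 2). The leading transcript of Hspa4l is not in the annotation release used, so its type is not known here.

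Coding transcripts held under 80% of the TPM in 12 of the 37 genes (32.4%), against 32.3% of 3614 protein-coding genes at the same level. A leading transcript not annotated as coding occurred in 4 (10.8%), against 8.72%. The chaperone genes were therefore near the background in this respect, and Hspa8 was the gene where it altered most TPM. Neighbours in the order of TPM changed places often: of 51 neighbouring pairs among the 52 expressed genes, 35 stood in opposite order in the 2 libraries, so levels that lie close have no order.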

How the data were processed

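Each library was deposited with a gene table and a transcript table, made on mm10 with GENCODE M4 per the readme deposited with it. Neither aligner nor quantifier is given in the sources used here. The columns the authors deposited are, per the file headers, estimated counts, TPM, FPKM, posterior means and posterior standard deviations of the count, and for transcripts the percent of their gene that each makes up. TPM as deposited is shared with all other RNAs of the total, short ones included. Names, types and coordinates came from GENCODE M21 on the same assembly, which matched 42462 of 43346 Ensembl rows. The gene identifier of Hspa14 had no row, and that gene was not analysed here.

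The tables held 65109488 estimated counts in replicate 1 and 90856320 in replicate 2. The reads carry no molecular identifiers and are not independent molecules, so intervals (exact, Clopper-Pearson, 95%) and the floor of 3 counts cover counting error only. Estimated counts were rounded and scaled by TMM (edgeR 4.0.16, R 4.3.3), 0.5 was added, and a gene entered the comparison with 10 or more counts in either library and was called at 2-fold. A gene was called expressed at 1 TPM or more in both libraries. The ratio script was tested on simulated data. No test between conditions was possible with 1 group.

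The members, compartments and partner lists were chosen with earlier results of these data known. Compartments were assigned by hand from general knowledge. Genes were named by a rule: the highest by mean TPM in each family (up to 10), all TRiC and PDI genes, those 2-fold apart with 100 or more counts, those at 0, the 5 smallest leading transcript shares at 5 TPM or more, and in each partner list the highest, the lowest and those 2-fold apart. Others named for a promoter sequence, a role or a ratio were chosen after their values were seen. Promoter sequences came from RefSeq (GRCm38.p6). Alternatives were DESeq2 1.42.0 size factors, total counts, other count and TPM minimums, FPKM, posterior means, counts in place of TPM, rescaled TPM and each library alone, and coding transcripts only, which was added after seeing the data.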

Additional observations from a re-analysis of the deposited data

How the results depend on the processing

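Of 195 values under 17 settings, 162 were stable. That meant within the spread between libraries, within 1.5 times for counts of genes, or on their side of 2-fold. Much of this was fixed in advance. Each library alone gave 31 of the 162, and either of 2 values lies within the SD of their mean. FPKM gave 24 and is proportional to TPM within a library. With coding transcripts only 15 moved and 17 stayed, and on counts 9 moved and 1 stayed. Ratios between libraries were tried singly for Hspa8, Hspa5, Hsp90ab1, Hsp90aa1, Hsph1 and Pdia6, all at -0.46 or below, and 0 changed sign. Over the 52 genes, 29 were lower on scaled counts and 46 on the TPM scale, so signs did change. Family medians of DNAJA, DNAJB and DNAJC changed too, to -0.27, -0.04 and -0.16 on the TPM scale. At 5 TPM 36 chaperone genes counted as expressed, a count without a background share. With 100 or more counts required, 1 chaperone gene (Hspa8) and 291 protein-coding genes were 2-fold apart, against 4 (5.63%) and 731 (6.04%). With 1 or more counts, 6 chaperone and 3541 protein-coding genes were, and on the TPM scale 5 (7.04%) and 360 (2.97%). The other count minimums change how many genes are tested. Shares were not taken there, so those counts cannot be set against the background. On the TPM scale Hspa5, Hsph1, Pdia6 and Pdia3 passed 2-fold too, at -1.002, -1.15, -1.08 and -1.08, as that scale lies lower in replicate 2 for most genes. The summed level depends on the unit and was 5937 as FPKM and 11480 when TPM was rescaled to nuclear protein-coding genes.

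With coding transcripts only, mean shares of the summed level were 30.2% for TRiC, which then came first, 22.8% for HSP70 and HSP110, 17.8% for HSP90, 8.96% for HSP60 and HSP10, 3.90% for PDI and 2.14% for DNAJA, and 69.7%, 14.1% and 14.6% for cytosol and nucleus, ER and mitochondria. Mean ratios were then 2.91 for the highest over the lowest TRiC subunit, 1.98 for Hsp90ab1 over Hsp90aa1 and 2.34 for Hspa8 over Hspa5. They were 1.16 for Hspa8 over Hsp90ab1, 2.04 for Hspa5 over Hsp90b1 and 1.07 for Hspa9 over the mitochondrial J proteins. Hspa8 was 51.3% of its family. On counts, which are not per length, the same ratios were 2.36, 1.49, 2.38, 1.31, 1.78 and 1.72, Hspa8 was 46.2% of its family, Hspe1 over Hspd1 turned from above to below 1, at 0.355, and Hspa5 over its J proteins was 1.52. No paired analysis was possible because the libraries form 1 group. With 2 libraries the spread itself is poorly known, and genes under about 10 counts cannot be compared at this depth.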
